A study of Homo sapiens with 6 samples.

Results

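The MYC-MAX network is a family of transcription factors of the basic helix-loop-helix leucine zipper type, and 10 of its genes, MYC, MYCL, MAX, MXD1, MXD3, MXD4, MXI1, MNT, MLX and MLXIP, were followed in RNA from cells treated with polydatin (PD) or with its solvent. The genes were taken by name, from a list drawn up with earlier results of these data known, and they are 10 of the 28563 genes of the deposited table. PD is a plant compound, a glucoside of resveratrol. The cells are labelled HepG2, an established human line from a liver cancer, and 3 dishes were given PD at 336 µM, as the labels state, while 3 dishes were given DMSO, and RNA was taken after 24 h. The paper's methods give a lower dose of PD for the same experiment. The values are FPKM, the fragments counted on a gene scaled to the length of the gene and to the size of its library, so levels can be set side by side between genes.

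MAX is the partner that MYC and MYCL need to bind DNA, and these dimers activate genes for growth, ribosome production and metabolism. The MXD proteins, MXI1 and MNT also pair with MAX, bind the same E-box, CACGTG, and bring in SIN3-HDAC corepressors instead. MLX is a MAX-like partner that pairs with MLXIP (MondoA) and MLXIPL (ChREBP), which respond to glucose metabolites, and it can also pair with some MXD proteins and with MNT.

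In PD-treated cells MYC mRNA fell, while MXD4 and MXI1, both from the repressor arm, and MLXIP rose. Of the 10 genes, 9 passed the minimum mean of 0.5 FPKM and were tested, and 7 of these 9 passed the threshold of 0.05 on the adjusted p (limma, Benjamini-Hochberg over all tested genes), 5 of them higher and 2 lower in PD. Over all 14400 tested genes 58.1% were called at this threshold, 31.9% as higher and 26.2% as lower, so a call by itself sets no member apart. With a change of at least 2-fold required as well, which makes a differentially expressed gene (DEG), MXD4 was the member called, against 3.61% of all tested genes, 2.04% higher and 1.57% lower. The libraries of the groups were apart for 6 of the 9 members, 5 with PD higher and 1 with PD lower, and for 65.4% of all tested genes, 35.6% with PD higher and 29.9% with PD lower. The number at the adjusted p alone fell from 7 to 4 when DMSO replicate 3 or PD replicate 1 was left out, with MAX, MXD3 and MLX as the members lost. When each FPKM was divided by the upper quartile of its library, the median change of all genes moved by -0.106 on the log2 scale. Of the called genes 39.1% instead of 54.8% were then higher. The small changes of members depend on the scaling. MAX (log2 fold change 0.17 on the deposited scale) and MXD3 (0.22) lost their calls, MNT (-0.13) was called lower, and MXD1 (0.09) turned to -0.01. On that scale 3 members were called higher and 3 lower, beside 59.9% of all genes (23.4% higher, 36.5% lower), and MXD4 and MYC were DEGs, beside 3.47% of all genes (1.3% higher, 2.16% lower).

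The libraries held 16308476 to 18071632 fragments, worked back from the FPKM, with similar depth in both groups. Of 20 hepatocyte genes, 11 were analysed. A level of 1 FPKM was reached in some library by CPS1 and RBP4 alone, while HNF4A, APOA1 and SERPINA1 were near 0, and ALB and AFP were not analysed here. The summed level of the hepatocyte genes was 222 to 229 FPKM in DMSO and 107 to 113 FPKM in PD, nearly all of it CPS1, and without CPS1 it was 0.496 to 0.69 FPKM in DMSO and 1.41 to 1.82 FPKM in PD. Among markers of other cell types, ESAM alone of 6 endothelial genes reached 1 FPKM, with a summed level of 29.0 to 32.5 FPKM in DMSO and 34.6 to 35.8 FPKM in PD, and the summed levels were 4.52 to 5.40 and 4.82 to 5.09 FPKM for 5 fibroblast genes and 0.62 to 0.757 and 0.613 to 0.785 FPKM for 3 leukocyte genes. The part of these shifts in the results was not tested, and the name HepG2 is used as the labels give it although, CPS1 apart, the hepatocyte genes analysed were low or near 0 in all 6 libraries, which goes against a label of hepatocyte origin. In bulk RNA, fewer cells that express a gene and less of its RNA per cell cannot be told apart.

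The E-box CACGTG, which reads the same on both strands, was looked for in RefSeq promoter windows of 300 bases (GRCh38.p14, 250 before and 50 after each start). Windows were given for 9 of the 10 members, with 12 windows in all, and 3 of the 12, those of MXD4, MNT and MLX, held an E-box, as did 7.26% of all 35116 windows. The bases before the start, cut where GENCODE places an earlier start, are shown for these members and for ARRDC4. ARRDC4 is a target of MLX dimers and is described further on. These bases hold an E-box, and whether the network acts through it in these cells was not tested. Each sequence runs 5′ to 3′ along the gene's own strand, with the E-box in capitals.
MXD4, chr4:2262110-2262359, minus strand: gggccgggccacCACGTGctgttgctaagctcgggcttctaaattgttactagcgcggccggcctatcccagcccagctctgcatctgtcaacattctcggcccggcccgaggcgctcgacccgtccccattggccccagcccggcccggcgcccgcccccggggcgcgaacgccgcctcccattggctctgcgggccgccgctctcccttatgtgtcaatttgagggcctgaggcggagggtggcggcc
MNT, chr17:2401105-2401310, minus strand: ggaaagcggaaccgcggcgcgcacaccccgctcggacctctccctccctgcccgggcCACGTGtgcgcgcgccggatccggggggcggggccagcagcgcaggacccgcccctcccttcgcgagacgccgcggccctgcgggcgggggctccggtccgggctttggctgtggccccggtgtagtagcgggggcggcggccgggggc
MLX, chr17:42566850-42567071, plus strand: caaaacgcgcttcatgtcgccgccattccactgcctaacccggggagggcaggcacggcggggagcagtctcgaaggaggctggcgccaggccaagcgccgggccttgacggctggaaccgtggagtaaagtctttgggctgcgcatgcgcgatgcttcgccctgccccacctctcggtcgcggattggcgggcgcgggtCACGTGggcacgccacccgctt
ARRDC4, chr15:97960453-97960702, plus strand: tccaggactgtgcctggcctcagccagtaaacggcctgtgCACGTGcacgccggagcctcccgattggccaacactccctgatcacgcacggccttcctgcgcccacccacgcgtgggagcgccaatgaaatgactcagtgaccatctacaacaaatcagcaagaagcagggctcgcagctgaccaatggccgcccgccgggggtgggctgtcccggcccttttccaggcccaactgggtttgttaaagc
Counted from the RefSeq start, which for MNT and MLX lies beyond the end of the bases printed, the E-box begins 238 bases upstream in MXD4, 193 in MNT, 50 in MLX and 210 in ARRDC4. A match of letters is a description of the sequence, and binding was not measured.

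MYC was by far the most abundant member. It had 196, 235 and 219 FPKM in DMSO replicates 1, 2 and 3 and 123, 103 and 109 FPKM in PD replicates 1, 2 and 3. All 3 PD libraries lay below all 3 DMSO libraries. The mean went from 216 ± 19.6 FPKM to 112 ± 10.2 FPKM (SD, n = 3 each), so that the level in DMSO was 1.94-fold that in PD. On the log2 scale MYC fell by 0.95 (SE 0.08, adjusted p = 6.7e-05, limma), and the 95% confidence interval of the change was -1.14 to -0.75. These values rest on 10149 to 11805 fragments per DMSO library and 5356 to 6661 per PD library. Since the change lay close to 2-fold, MYC was called a DEG under upper quartile scaling (-1.08), without DMSO replicate 1 (-1.02) and without PD replicate 1 (-1.02), and not on the deposited scale. MYC ranked 114 among all 28563 genes by its mean FPKM in DMSO and 290 in PD. An antisense gene, CASC11, overlaps an exon of MYC, and the strand setting of the counting is not given in the sources used here.

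MYCL, a paralogue of MYC, was nearly silent. It had 0.0686, 0.0471 and 0.0462 FPKM in DMSO and 0.273, 0.248 and 0.182 FPKM in PD, from 6, 4 and 4 fragments and from 25, 22 and 15 fragments. The PD libraries were all higher, but the mean of all libraries was under 0.5 FPKM and MYCL was not in the main test. With limma voom on fragments all 10 members were tested, and 6, MYCL among them, were called higher and 2 lower. Of 15314 genes 61.5% were called (33.8% higher, 27.7% lower). MYCL passed the filter of that test, at least 10 fragments in 3 or more libraries, only through the PD libraries, where it was high. Its log2 fold change there was 2.01 (SE 0.41, 95% interval 1.14 to 2.88), and its call is for that reason no support for a rise. On log2(FPKM + 1) without any filter the change was 0.23 (adjusted p = 0.0076, limma), where 8060 of 28563 genes were called. That value rests on 4 to 6 fragments per DMSO library, near the limit of detection. MYCL and MXD4 were the DEGs of the voom test, in which 11.8% of all genes were DEGs and 6.81% of all genes were DEGs with the higher level in PD. On the scale of FPKM its mean in PD, 0.234 ± 0.0473 (SD, n = 3), was still far below that of MYC. Exons of the antisense gene MYCL-AS1 overlap MYCL. MYCN, another MYC gene and no member of the list, had 1, 0 and 2 fragments in DMSO and 0 in each PD library, which is at or below the 3 fragments per library taken as the limit of detection.

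MAX, the shared partner, had 6.78, 7.26 and 6.43 FPKM in DMSO and 7.89, 7.96 and 7.59 FPKM in PD. The groups did not overlap, yet the rise was small, with a log2 fold change of 0.17 (SE 0.05, 95% interval 0.05 to 0.30, adjusted p = 0.026, limma). It was not called under upper quartile scaling (0.05, adjusted p = 0.44), nor without DMSO replicate 1 (adjusted p = 0.063), DMSO replicate 3 (0.07), PD replicate 1 (0.067) or PD replicate 2 (0.079). MYC mRNA therefore stood at 28.9 to 34.0 times the level of MAX in the DMSO libraries and at 12.9 to 15.6 times in the PD libraries. Exons of FNTB, on the opposite strand, overlap MAX, so its level and these ratios are uncertain.

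**Figure D1:**
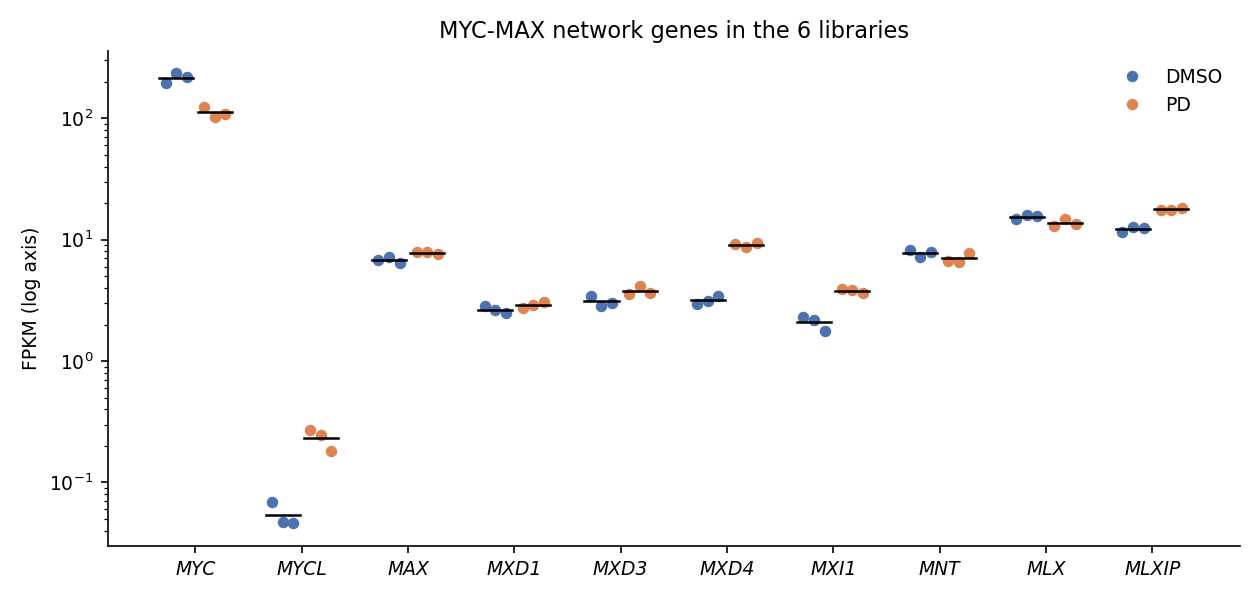
FPKM of the 10 network genes on a log axis, with 1 point per library (3 DMSO, 3 PD) and a bar at each group's mean. MYC drops from a mean of 216 to 112 FPKM, MXD4 goes up from 3.18 to 9.07 FPKM, and the points of MXD1, MNT and MLX overlap between the groups.

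Of the genes of the repressor arm, MXD4 changed most. It had 2.97, 3.14 and 3.42 FPKM in DMSO and 9.16, 8.68 and 9.37 FPKM in PD, so every PD library exceeded every DMSO library by a wide margin. Means of 3.18 ± 0.228 FPKM in DMSO and 9.07 ± 0.354 FPKM in PD (SD, n = 3 each) gave a ratio of 2.86, on 362 to 413 fragments per library in DMSO and 1074 to 1168 in PD. The log2 fold change on the FPKM + 1 scale was 1.27 (SE 0.06, adjusted p = 5.7e-06, limma), and on fragments, where no pseudocount of that size enters, it was 1.51. By size of rise MXD4 ranked 106 among the 14400 tested genes. The gene lies on chromosome 4 of GRCh38 from 2247432 to 2262109, and the microRNA gene MIR4800 shares its exons on the same strand.

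MXI1 (also known as MXD2) rose as well, from 2.29, 2.19 and 1.76 FPKM in DMSO to 3.93, 3.84 and 3.61 FPKM in PD. The groups did not overlap, and the lowest DMSO value was that of replicate 3. Its log2 fold change was 0.64 (SE 0.08, adjusted p = 0.00042, limma) on the FPKM + 1 scale and 0.87 on fragments, with means of 2.08 ± 0.278 and 3.79 ± 0.166 FPKM (SD, n = 3 each). MXI1 lies on chromosome 10 from 110207605 to 110287365, and a gene on the opposite strand overlaps its exons. None of its 3 RefSeq promoter windows held CACGTG.

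MXD1 and MXD3, the other MXD genes of the list, moved little. MXD1 had 2.85, 2.65 and 2.47 FPKM in DMSO and 2.74, 2.90 and 3.07 FPKM in PD, and the groups overlapped. Its log2 difference was 0.09 with a 95% interval of -0.06 to 0.25 (adjusted p = 0.27, limma), which excludes a change of the size seen in MXD4 or MXI1, and it was -0.01 under upper quartile scaling. MXD3 had 3.45, 2.85 and 3.01 FPKM in DMSO and 3.56, 4.12 and 3.62 FPKM in PD, close together at the edges. Its log2 fold change of 0.22 (SE 0.08, 95% interval 0.03 to 0.40) had an adjusted p of 0.046 (limma) and was not called without DMSO replicate 2 (adjusted p = 0.13), DMSO replicate 3 (0.11), PD replicate 1 (0.058), PD replicate 2 (0.14) or PD replicate 3 (0.074), nor with the replicate number as a block (0.089), without the filter (0.11), under upper quartile scaling (0.27) or under median-of-ratios scaling (0.058). Exons of MXD1 overlap SNRNP27 on the same strand. Exons of MXD3 overlap RAB24 on the same strand and PRELID1 on the other, so the fragments of both genes are uncertain.

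MNT, a large MAX partner that is expressed in dividing as well as resting cells, had 8.16, 7.22 and 7.88 FPKM in DMSO and 6.64, 6.61 and 7.76 FPKM in PD. PD replicate 3 lay within the DMSO range, while the other two PD libraries lay below it. The log2 difference was -0.13 with a 95% interval of -0.30 to 0.04 (adjusted p = 0.16, limma). Without PD replicate 3 it was -0.20 (adjusted p = 0.042), and under upper quartile scaling it was -0.25 (adjusted p = 0.016). A gene on the opposite strand overlaps exons of MNT. MGA, a further MAX partner that was not in the list, was slightly lower in PD, with 10.0, 10.6 and 10.4 FPKM in DMSO and 9.37, 8.15 and 8.31 FPKM in PD (log2 fold change -0.24, SE 0.06, adjusted p = 0.0093, limma).

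**Figure D2:**
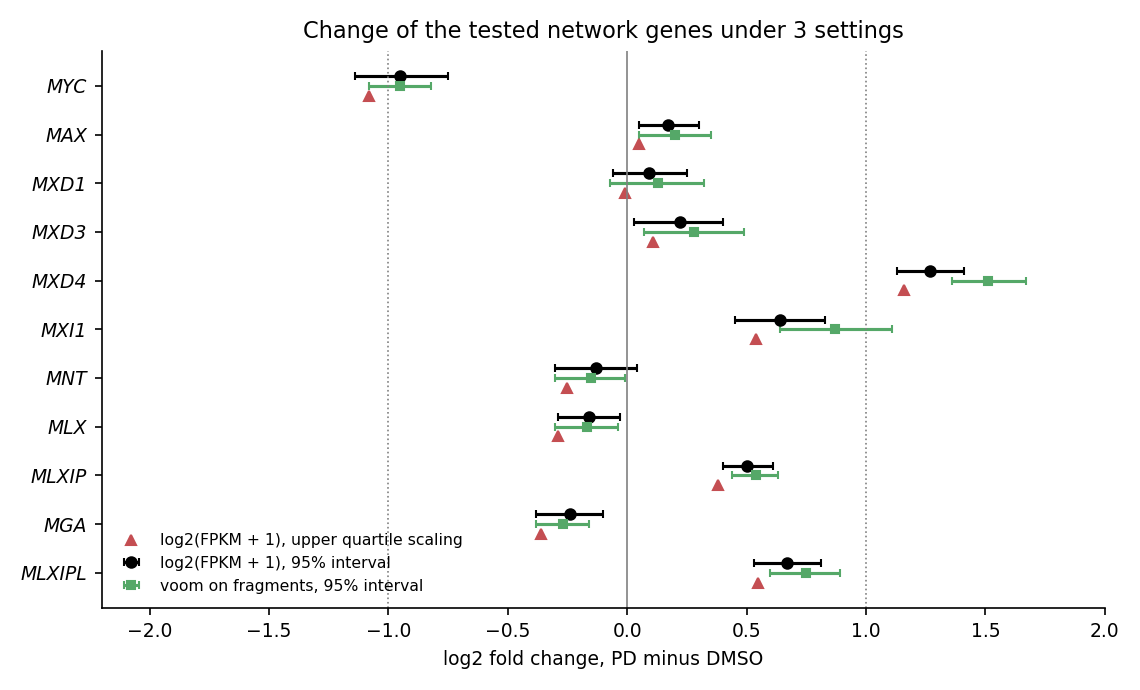
Log2 fold change (PD minus DMSO) of the 9 tested members and of MGA and MLXIPL, as circles on the log2(FPKM + 1) scale, as squares from voom on fragments, each with its 95% interval, and as triangles after upper quartile scaling; dotted lines mark 2-fold. MXD4 lies beyond 2-fold in all 3, MYC at -0.95 to -1.08, and MAX, MXD1 and MXD3 near 0.

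Within each library the levels of the repressor genes were added and set against MYC. MXD1, MXD3, MXD4, MXI1 and MNT together had 19.7, 18 and 18.5 FPKM in DMSO replicates 1, 2 and 3 and 26.0, 26.1 and 27.4 FPKM in PD replicates 1, 2 and 3. MYC was 9.93, 13.0 and 11.8 times this sum in DMSO and 4.72, 3.93 and 3.99 times in PD, with no overlap. Its share of the summed FPKM of all 10 members was 80.1% ± 1.30 in DMSO and 62.7% ± 2.48 in PD (SD, n = 3 each). The composition of the repressor arm shifted too, since MNT held 40.0 to 42.5% of the repressor sum in DMSO and 25.3 to 28.3% in PD, whereas MXD4 held 15.1 to 18.5% and 33.2 to 35.2%. Among the genes of this sum, which leaves out MGA, MNT was thus the leading mRNA in each DMSO library and MXD4 in each PD library. These ratios follow from the members already described and were given no test, and protein levels were not measured here. They also carry the uncertainty of the members whose exons overlap other genes.

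**Figure D3:**
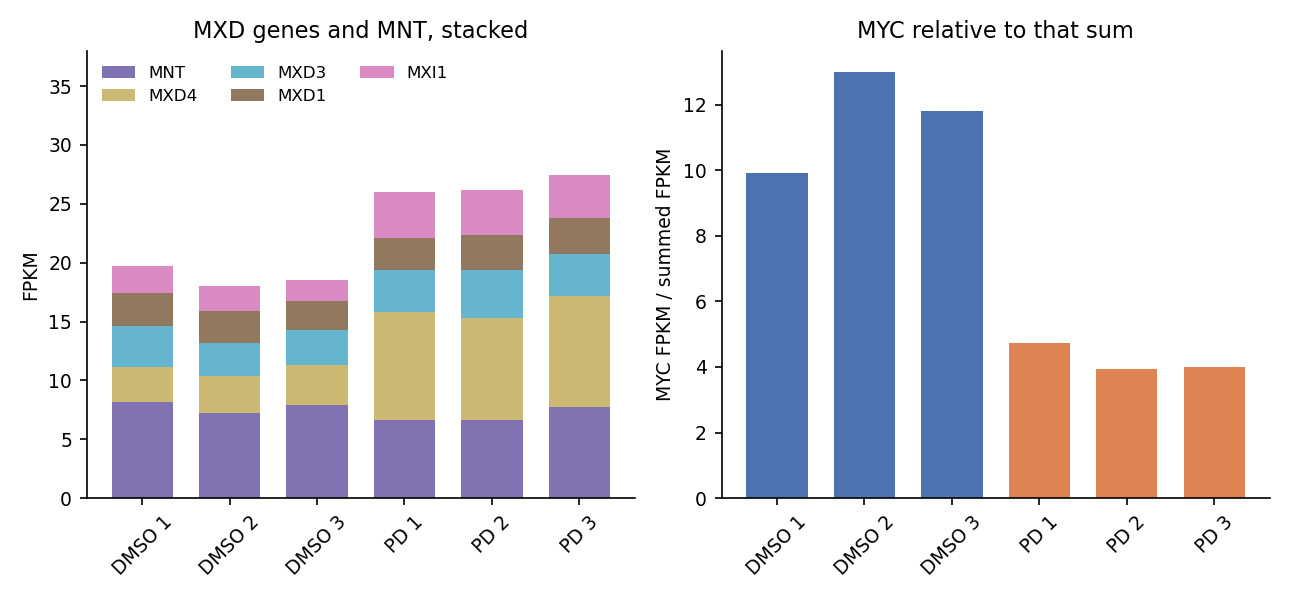
Left, FPKM of MNT, MXD4, MXD3, MXD1 and MXI1 stacked for each library; right, MYC FPKM divided by that sum. The sum is 18 to 19.7 FPKM in DMSO and 26.0 to 27.4 FPKM in PD, with the band of MXD4 wider in PD, and the ratio is 9.93 to 13.0 in DMSO and 3.93 to 4.72 in PD.

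Ordered by mean FPKM in DMSO, the members ran MYC, MLX, MLXIP, MNT, MAX, MXD4, MXD3, MXD1, MXI1 and MYCL. The ranges of the libraries overlapped between the neighbours MNT and MAX, MXD4 and MXD3, and MXD3 and MXD1, so that their order is not settled, and they were apart between the other neighbours. In PD the order was MYC, MLXIP, MLX, MXD4, MAX, MNT, MXI1, MXD3, MXD1 and MYCL. Here the ranges of MAX and MNT and of MXI1 and MXD3 overlapped. MXD4, below MAX and MNT in DMSO, stood above both in PD, and MLXIP passed MLX. Exon overlaps with other genes make the levels of several members uncertain, and with them the order.

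After MYC, the genes of the MLX arm were the most abundant members. MLX had 14.8, 16 and 15.7 FPKM in DMSO and 13.0, 14.8 and 13.5 FPKM in PD, and PD replicate 2 reached the lower end of the DMSO range. Its log2 fold change of -0.16 (SE 0.06, 95% interval -0.29 to -0.03) had an adjusted p of 0.044 (limma), and it was not called without DMSO replicate 2 (adjusted p = 0.12), DMSO replicate 3 (0.098), PD replicate 1 (0.13) or PD replicate 3 (0.12), nor without the filter (0.088). Exons of PSMC3IP, on the opposite strand, overlap MLX.

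MLXIP, which encodes the glucose-responsive factor MondoA, rose from 11.6, 12.7 and 12.5 FPKM in DMSO to 17.6, 17.6 and 18.3 FPKM in PD. The PD libraries were close to one another and all above the DMSO libraries. The means were 12.3 ± 0.621 and 17.8 ± 0.397 FPKM (SD, n = 3 each), with a log2 fold change of 0.50 (SE 0.05, 95% interval 0.40 to 0.61, adjusted p = 8.5e-05, limma). MLXIP lies on chromosome 12 from 122078756 to 122147344, with no exon overlap with another gene. Its paralogue MLXIPL, known as ChREBP in the liver and not in the list, had 6.89, 6.02 and 6.87 FPKM in DMSO and 10.8, 11.4 and 10.9 FPKM in PD (log2 fold change 0.67, SE 0.06, adjusted p = 7e-05, limma). MLXIP and MLXIPL together stood at 1.17 to 1.25 times the level of MLX in DMSO and at 1.96 to 2.19 times in PD. Under upper quartile scaling both rises were smaller, at 0.38 and 0.55, and both were still called.

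Of 12 genes listed as targets of MLX with MLXIP or MLXIPL, 7 were tested, and 4 were higher and 1 was lower in PD at an adjusted p no greater than 0.05 (limma). These are 57.1% and 14.3% of the 7, beside 31.9% and 26.2% of all tested genes, and their median log2 fold change was 0.77, beside 0.01 over all tested genes. TXNIP, an inhibitor of thioredoxin and of glucose uptake that is a standard readout of MondoA, had 17.1, 16.5 and 13.1 FPKM in DMSO and 52.6, 49.2 and 51.2 FPKM in PD. Every PD library was far above every DMSO library, and the log2 fold change was 1.66 (SE 0.09, adjusted p = 1e-05, limma), rank 17 among the rises of all tested genes. Neither of its RefSeq promoter windows held an exact CACGTG.

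ARRDC4, an arrestin-domain protein related to TXNIP, whose E-box is printed above, rose from 1.31, 1.22 and 1.23 FPKM to 2.92, 3.33 and 3.43 FPKM (log2 fold change 0.91, SE 0.07, adjusted p = 4.6e-05, limma). ARRDC3, of the same family, had 3.36, 2.26 and 2.24 FPKM in DMSO and 5.05, 5.30 and 4.93 FPKM in PD, with DMSO replicate 1 above the other two controls. The log2 fold change of ARRDC3 was 0.77 (SE 0.12, adjusted p = 0.0011, limma), and an antisense gene, ARRDC3-AS1, overlaps its exons. KHK, the ketohexokinase that starts fructose breakdown, rose from 1.02, 0.936 and 1.15 FPKM to 2.71, 2.91 and 2.48 FPKM (log2 fold change 0.86, SE 0.08, adjusted p = 8.6e-05, limma), and exons of CGREF1 overlap it. KLF10 was the gene called lower, by a log2 fold change of -0.15 (adjusted p = 0.033, limma), and this call was lost without DMSO replicate 1 (adjusted p = 0.1), DMSO replicate 2 (0.091), PD replicate 2 (0.074) or PD replicate 3 (0.11). ARRDC3 and KLF10 were singled out once their values were known. PNPLA3 and GPD1 were tested and not called, and PKLR, FGF21 and RGS16, which are used in differentiated liver or other tissues, had means under 0.5 FPKM, and G6PC1 was not analysed here.

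**Figure D4:**
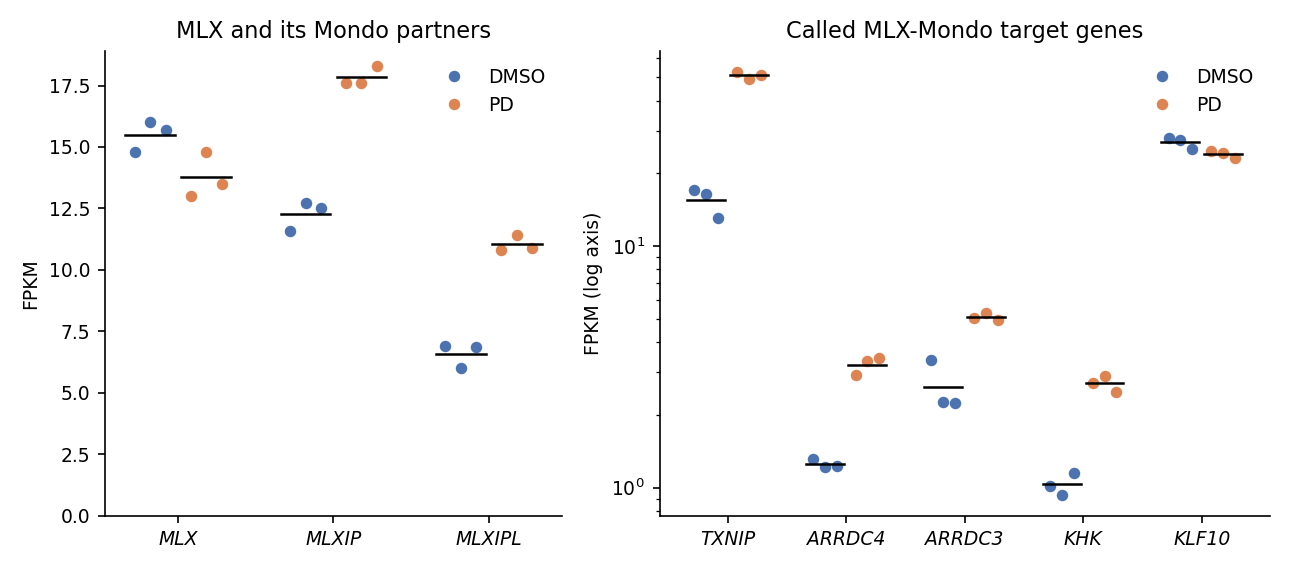
FPKM per library of MLX, MLXIP and MLXIPL (left, linear axis) and of the 5 called target genes (right, log axis), with a bar at each group's mean. MLXIP and MLXIPL lie higher in all PD libraries while MLX does not, and TXNIP goes from a mean of 15.6 to 51.0 FPKM.

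Genes that MYC is known to activate were mostly lower in PD. Of 60 listed genes 59 were tested, and 38 of them (64.4%) were lower and 9 (15.3%) higher by the same threshold on the adjusted p (limma), beside 26.2% and 31.9% of all tested genes, while 12 were not called. The median log2 fold change was -0.26, and 2 genes, WDR43 and GNL3, fell by at least 2-fold on the log2(FPKM + 1) scale. PPAN, a gene of low level, went from a mean of 1.85 to 0.861 FPKM, which is -0.61 on that scale. With upper quartile scaling 43 were lower and 6 higher, on a scale where 36.5% of all genes were lower and 23.4% higher. WDR43, a factor for processing ribosomal RNA, fell from 35.5, 33.7 and 32.4 FPKM to 14.0, 12.9 and 13.7 FPKM (log2 fold change -1.26, SE 0.05, adjusted p = 3.2e-06, limma). GNL3, the nucleolar protein nucleostemin, had means of 42.8 ± 2.18 and 20.5 ± 0.849 FPKM (SD, n = 3 each, log2 fold change -1.03), and other genes overlap its exons on both strands. NOLC1, a nucleolar phosphoprotein that assists RNA polymerase I, had 151, 149 and 147 FPKM in DMSO and 85.0, 83.2 and 82.5 FPKM in PD (log2 fold change -0.82).

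Not all MYC-activated genes followed. SRM, the spermidine synthase, was higher in PD at 57.5 to 59.4 FPKM against 47.6 to 49.1 FPKM in DMSO, and ODC1, the ornithine decarboxylase that precedes it in polyamine synthesis, had 157 to 164 FPKM in DMSO and 173 to 176 FPKM in PD. CAD, which starts pyrimidine synthesis, had 38, 39.1 and 40.3 FPKM in DMSO and 40.4, 41.2 and 40.2 FPKM in PD and was not called. Under upper quartile scaling SRM was still higher (0.14), while ODC1 and CAD had log2 differences of -0.02 and -0.08 and were not called. These 3 genes were picked after their values had been seen. Of the listed genes with a promoter window, 28 of 50 held an E-box. Counted by window it was 28 of 65, beside 7.26% of all 35116 windows. Of those tested, 16 of 27 with an E-box and 15 of 22 without one were lower in PD, with medians of -0.19 and -0.26 on the log2 scale.

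Of 9 genes that MYC is known to repress, 8 were tested, and 4 were higher and 3 lower in PD by that threshold, beside 31.9% and 26.2% of all tested genes, and the median log2 fold change was 0.07. CEBPA, among the 4, had means of 0.26 FPKM in DMSO and 1.27 FPKM in PD. It reached the minimum mean of 0.5 FPKM only through its PD libraries, so its call is no support for a rise. CDKN1A, the cell cycle inhibitor p21 and also a target of p53, rose from 50.8, 51.7 and 47.7 FPKM to 101, 117 and 114 FPKM (log2 fold change 1.13, adjusted p = 8.5e-06, limma). CDKN1B, the related inhibitor p27, went the other way, from 51.4, 52.4 and 51.2 FPKM to 26.6, 25.3 and 25.8 FPKM (-0.97), and GAS1, a membrane protein of resting cells, fell from 22.0 ± 1.26 to 8.57 ± 0.316 FPKM (SD, n = 3 each, -1.26). The list thus had no common direction. Under upper quartile scaling 2 genes, CDKN1A and CEBPA, were called higher and 3 lower, on a scale where 23.4% of all genes were higher and 36.5% lower.

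**Figure D5:**
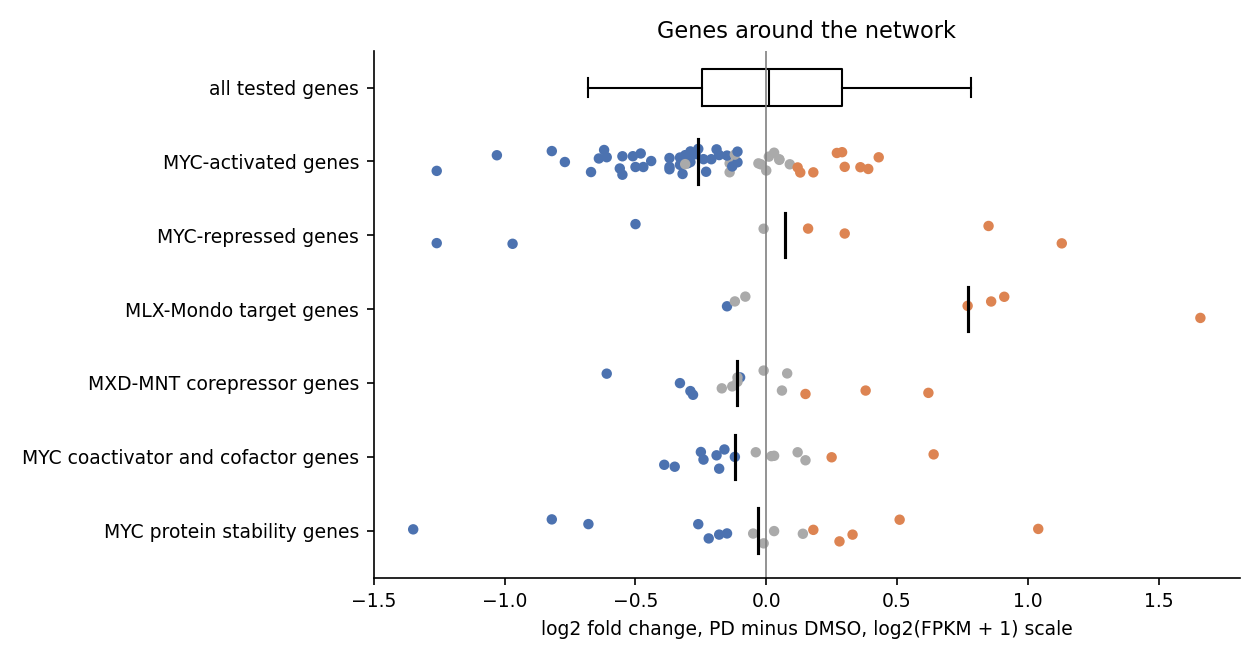
Log2 fold change (PD minus DMSO, log2(FPKM + 1) scale) of each tested gene in 6 lists around the network, with orange for called higher, blue for called lower and grey for not called, and a bar at each list's median. The box gives all 14400 tested genes, with whiskers at the 5th and 95th percentiles; the MYC-activated genes have a median of -0.26 and the MLX-Mondo targets one of 0.77.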

How the data were processed

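RNA from 3 dishes treated with PD and 3 treated with DMSO was sequenced, with 1 library per dish, and groups and replicate numbers were taken from the sample labels. From poly(A) RNA, the authors mapped reads to hg38 with HISAT2, counted them per gene with HTSeq (0.6.0, per the labels' processing notes) and deposited FPKM for 28563 genes. Symbols (28161 matched), positions and exon overlaps came from GENCODE release 44 on the same genome, and promoters from RefSeq (GRCh38.p14). Genes whose mean reached 0.5 FPKM were tested with limma 3.58.1 in R 4.3.3 on log2(FPKM + 1), with Benjamini-Hochberg adjustment. The prior variance was intensity-dependent. Adding 1 to each FPKM understates the change of low genes. A DEG needed an adjusted p no greater than 0.05 and a change of 2-fold or more. Whole fragments were worked back from FPKM for 28561 genes (within 1e-06 of a whole number) and used in voom for genes with at least 10 fragments in 3 or more libraries. Both tests were tested on simulated data. Counting error is large for the 13193 to 13601 genes per library with under 10 fragments.

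The members and lists were chosen with earlier results of these data known. Every member and related network gene was named, and from each other list the 3 largest changes among called genes, of which 1 cofactor is not reported here. The lists hold MYC-activated genes, MYC-repressed genes, MLX-Mondo targets, corepressors, MYC cofactors, MYC protein stability genes, and hepatocyte, endothelial, fibroblast and leukocyte markers. Nothing in the labels says that the dishes were independent experiments, so p-values measure the spread between dishes. Libraries of a group differed by more than sampling noise (chi-square per gene of 2.41 to 3.86, where noise gives about 1). Alternatives were a pseudocount of 0.1, no filter, the replicate number as a block, upper quartile and median-of-ratios scaling, voom, and leaving out each library.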

Additional observations from a re-analysis of the deposited data

How the results depend on the processing

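In all, 34 genes (the 9 tested members, MGA, MLXIPL and genes of the lists) were followed through 12 alternatives. MYC, MXD4, MXI1, MLXIP, MLXIPL and TXNIP kept their direction and their call in every one. MXD1 turned to -0.01 under upper quartile scaling. Members at an adjusted p of at most 0.05 numbered 7 in the main setting and 4 to 6 when a library was left out. Members called DEG numbered 1 in the main setting, 2 under upper quartile scaling (with MYC) and 1 to 2 when a library was left out. With voom they numbered 2, counting MYCL, which passed the filter only through its PD libraries. Over all genes, 520 DEGs became 1248 when the pseudocount was 0.1, 1809 when fragments were tested with voom, and 511 to 561 when a library was left out, with 7390 to 7953 genes called by the adjusted p. Same-numbered libraries did not deviate together (correlations of -0.027 to 0.09), and not every library correlated best with its own number, so the numbers were not taken as pairs. With the replicate number as a block, 8032 instead of 8368 genes were called at the adjusted p, 518 were DEGs, and among the members MXD3 lost its call. No call on the members was changed by the pseudocount of 0.1. Genes called lower in the corepressor list numbered 5 in the main setting, 9 under upper quartile scaling, 8 with voom and 3 without PD replicate 2. Of all genes, 26.2% were lower in the main setting, 36.5% under upper quartile scaling and 27.7% with voom. Those called higher in the stability list numbered 5, and 3 under upper quartile scaling, with no filter, or without DMSO replicate 1 or PD replicate 3. Of all genes, 31.9% were higher in the main setting and 23.4% under upper quartile scaling.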

Other observations

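Genes that the network proteins work with were followed as well. Of 15 genes for SIN3-HDAC and NCOR corepressors, through which MXD proteins and MNT silence genes, all were tested, and 3 were higher and 5 lower in PD by the adjusted p (limma). These are 20% and 33.3% of the list, beside 31.9% and 26.2% of all tested genes. Their median log2 fold change was -0.11, beside 0.01 over all tested genes. SAP130, a subunit of the SIN3 complex, rose from 8.94, 9.48 and 10.2 FPKM to 14.5, 15.0 and 16 FPKM (log2 fold change 0.62, adjusted p = 9.6e-05). ARID4B, of the same complex, fell from 6.65, 7.41 and 6.48 FPKM to 4.75, 3.95 and 3.79 FPKM (-0.61), and ING1, a reader of methylated histone H3 in that complex, rose by 0.38. SIN3A had 6.08 to 6.67 FPKM in DMSO and 5.08 to 5.27 FPKM in PD.

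Among 15 cofactors of MYC, 2 (13.3%) were higher and 8 (53.3%) lower, beside the same 31.9% and 26.2% of all tested genes, with a median of -0.12. KAT2B, a histone acetyltransferase, rose from 4.36 ± 0.10 to 7.35 ± 0.0882 FPKM (SD, n = 3 each, log2 fold change 0.64), while EP300, another acetyltransferase, fell from 8.28, 8.49 and 8.15 FPKM to 6.76, 5.97 and 6.17 FPKM (-0.35). Of 16 genes that set the stability of MYC protein, 5 (31.2%) were higher, close to the share of all tested genes, and 7 (43.8%) were lower, with a median of -0.03. AURKA, a mitotic kinase that shields MYC proteins from degradation, fell from 48.3, 54.6 and 52.6 FPKM to 20.5, 19.3 and 19.4 FPKM (-1.35). The PIM kinases split, as PIM2 rose from 4.63 ± 0.283 to 10.6 ± 0.227 FPKM (1.04) and PIM1 fell from 38.6 ± 0.610 to 21.4 ± 1.57 FPKM (SD, n = 3 each, -0.82). PIM3, the most abundant of them, fell as well, from 94.0 ± 7.82 to 58.2 ± 2.22 FPKM (SD, n = 3 each, -0.68). FBXW7, which marks MYC for degradation, had 1.10 to 1.11 FPKM in DMSO and 1.08 to 1.10 FPKM in PD and was not called.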
